A study of Mus musculus with 11 samples.

Results

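In mouse dentate gyrus, 747 of 59298 regions of called open chromatin separated animals that carried an shRNA against c-Fos from animals that carried a control shRNA. Of these, 579 were called in at least 4 of 5 shRNA-cFos libraries and in at most 1 of 6 shRNA-Ctrl libraries, and they are named here shRNA-cFos regions. The other 168, the shRNA-Ctrl regions, were called in at least 5 of 6 shRNA-Ctrl libraries and in at most 1 of 5 shRNA-cFos libraries. A region is the union of ATAC-seq peaks of all 11 libraries that share at least 1 bp on chromosomes 1 to 19 and X, after each list was cut, from the highest score down, to the length of the shortest list. Any library with such a peak inside a region counts as calling it. The members were thus chosen by the shRNA contrast itself, so every difference between the shRNA groups below is a description and carries no test.

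The groups were shRNA-cFos E1 (2 libraries), shRNA-cFos E0 (3), shRNA-Ctrl E1 (3) and shRNA-Ctrl E0 (3). All animals were C57BL/6 mice of 8 weeks whose dentate gyrus was infected with an adeno-associated virus (AAV) that expressed the shRNA, and each library came from the microdissected tissue of 1 mouse. E0 lists are named as sham by the submitters, and the labels do not define E1. The series is described as a study of chromatin on neuronal activation, so E1 is taken here as the activated state, with its stimulus unstated. The share of cells that the virus reached, the promoter of the hairpin and the extent of c-Fos loss are not given in the sources used here. A peak list cannot show a knockdown that acts on RNA, and the labelled tissue was not checked against marker genes because no annotation of the files' build, mm9, was used here. For the same reason regions carry positions and no gene names, and no sequence is shown.

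c-Fos pairs with Jun proteins to form AP-1, a transcription factor that binds short DNA sites in many enhancers and can recruit remodelling complexes that open nucleosomal DNA. The gene is an immediate early gene: it is nearly silent in resting granule neurons, the main cell type of the dentate gyrus, and is switched on within minutes of firing. ATAC-seq reads open chromatin by inserting adapters with a transposase where DNA is accessible. In bulk tissue, fewer cells with an open site and a less open site in each cell cannot be told apart.

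The lists differed in length before they were cut, from 25215 to 78377 peaks, and the 3 longest were shRNA-cFos E0 replicate 2 and shRNA-Ctrl E1 replicates 1 and 3. Read depth is unknown. The lowest score kept ranged accordingly from 50 in shRNA-Ctrl E0 replicate 1 to 174.9 in shRNA-Ctrl E1 replicate 3. Whether replicates were processed alike is not stated, and the names of the last pair of long lists lack a word that the other 9 carry. The score is the authors' own value per peak, on a scale that no source states. It served here to order the peaks of each cut list, as a percentile in which 100 is the highest.

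The shRNA-cFos regions outnumbered the shRNA-Ctrl regions 3.45 to 1, which is a ratio of regions that met the rule and not of open sites. The 2 rules are also not balanced, since 4 of 5 calls suffice on one side and 5 of 6 are needed on the other. Without the 3 longest lists, which leaves 4 libraries of each shRNA and the same allowance of 1 missing and 1 stray call, 2124 shRNA-cFos and 1165 shRNA-Ctrl regions met the rule, a ratio of 1.82 to 1, and 577 and 167 of the members were among them. Without shRNA-Ctrl E1 replicates 1 and 3 the ratio was 1.74. Both of these settings were chosen after the data were seen. The shRNA-cFos regions made up 0.976% of all regions and the shRNA-Ctrl regions 0.283%. Since the rule fixed these shares, nothing further is read from them. Complete separation was rare. Only 36 regions (0.0607% of all) were called in all 5 shRNA-cFos and no shRNA-Ctrl library, and 8 regions (0.0135%) in all 6 shRNA-Ctrl and no shRNA-cFos library.

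Most members had at least 1 missing or stray call. Of the 579 shRNA-cFos regions, 286 had both a missing call and a stray call, 133 had only a missing call and 124 had only a stray call. Of the 168 shRNA-Ctrl regions, 104 had both, 27 had only a missing call and 29 had only a stray call. Outside the rule, 1214 regions were 1 call short with 3 of 5 shRNA-cFos calls and at most 1 shRNA-Ctrl call, and 788 had a second shRNA-Ctrl call. On the shRNA-Ctrl side these numbers were 524 and 329. The median percentile of shRNA-cFos calls was 31.6 in the 286 regions at the limit, 25.2 in the 1214 and 35 in the 788, and that of shRNA-Ctrl calls was 34.4 in the 104, 29.5 in the 524 and 38.4 in the 329.

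The regions with the highest mean percentile on either side of the shRNA-cFos threshold overlapped in their percentiles where called. Just inside lay chr3:114955431-114956650, at percentiles 34.1 in shRNA-cFos E1 replicate 2 and 76.3, 77.7 and 84.1 in the 3 shRNA-cFos E0 libraries, with 1 shRNA-Ctrl call at percentile 18.0 in E0 replicate 3. Just outside lay chr6:8587680-8588940, called in all 5 shRNA-cFos libraries at percentiles 50.3 to 84.4 and in 2 shRNA-Ctrl libraries, E1 replicate 1 at 51.6 and E0 replicate 2 at 19.8. The region outside the rule was therefore called more evenly among shRNA-cFos libraries than the one inside it. On the shRNA-Ctrl side, chr10:54561158-54562112 lay just outside, with 2 shRNA-cFos calls at percentiles 29.4 and 7.97 and all 6 shRNA-Ctrl calls between 54.2 and 81.4.

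Calls of the shRNA-cFos regions were spread over the 5 shRNA-cFos libraries. E1 replicates 1 and 2 called 426 and 514 of the 579, and E0 replicates 1, 2 and 3 called 503, 542 and 491. Among shRNA-Ctrl libraries, E1 replicates 1, 2 and 3 called 38, 72 and 45 of them, and E0 replicates 1, 2 and 3 called 58, 109 and 88. No single library therefore made the set, but shRNA-cFos E1 replicate 1 lacked 153 of the regions, more than any other shRNA-cFos library. Stray shRNA-Ctrl calls numbered 155 at E1 and 255 at E0.

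The shRNA-Ctrl regions were called in 34 and 17 cases by shRNA-cFos E1 replicates 1 and 2, and in 29, 28 and 25 cases by shRNA-cFos E0 replicates 1, 2 and 3. In shRNA-Ctrl, E1 replicates 1, 2 and 3 called 156, 134 and 149 of the 168, and E0 replicates 1, 2 and 3 called 135, 148 and 155. Here E1 replicate 2 and E0 replicate 1 lacked the most, with 34 and 33 regions.

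**Figure D1:**
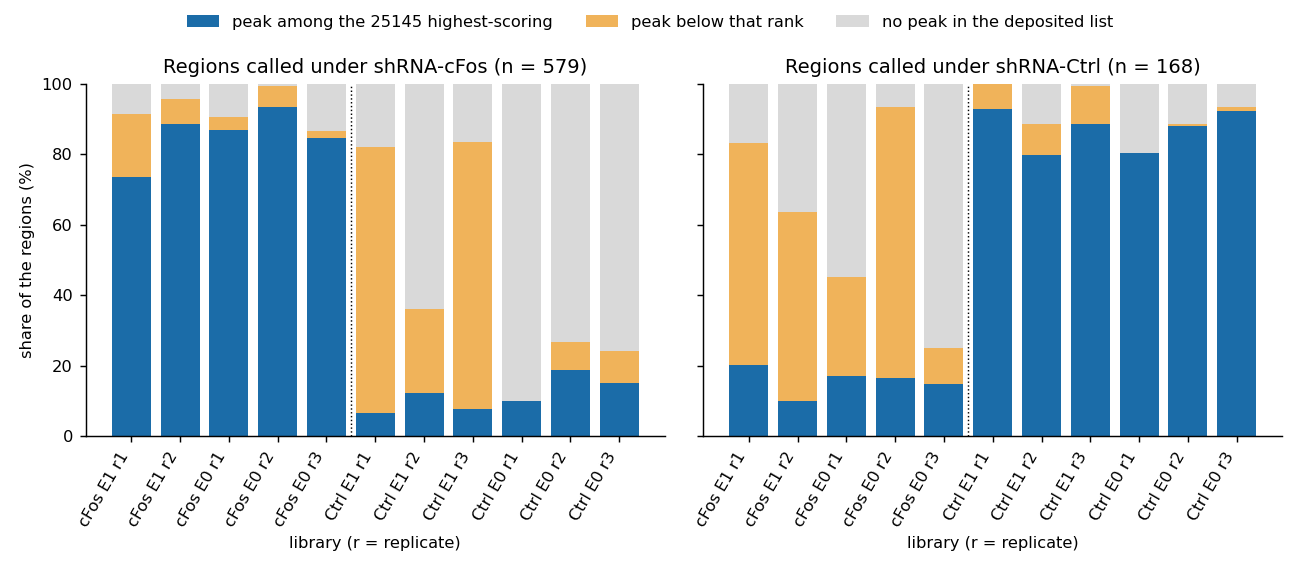
Share of the 579 shRNA-cFos regions (left) and the 168 shRNA-Ctrl regions (right) in each library that had a peak in the cut list, a peak below its limit, or no peak in the deposited list; the dotted line parts the 5 shRNA-cFos from the 6 shRNA-Ctrl libraries. In the left panel shRNA-Ctrl E1 replicates 1 and 3 have a lower-ranked peak in 75.6% of the regions each, while shRNA-Ctrl E0 replicate 1 has none below the limit.

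Very few members lacked a peak outright under the other shRNA. In the lists as deposited, many held a peak that fell below the limit. Of the 579 shRNA-cFos regions, 565 (97.6%) had a peak in at least 1 of the 6 shRNA-Ctrl lists as deposited, with a median of 3 lists. Of the 168 shRNA-Ctrl regions, 166 (98.8%) had a peak in at least 1 of the 5 shRNA-cFos lists, with a median of 3 as well. A stray call above the limit counts here too. It was present in 286 shRNA-cFos regions with a missing call and 124 without, and in 104 and 29 shRNA-Ctrl regions. The rule allows only 1 stray call, so a median of 3 lists includes peaks below the limit. No such share is given for other regions.

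Where these lower peaks appeared followed list length. In the shRNA-cFos regions, shRNA-Ctrl E1 replicates 1 and 3, the longest lists, each had a peak below the limit in 438 regions, and E1 replicate 2 in 137. In shRNA-Ctrl E0 replicates 1, 2 and 3 the numbers were 0, 46 and 52, the first being the shortest list, of which nothing was cut. In the shRNA-Ctrl regions, shRNA-cFos E1 replicates 1 and 2 had such a peak in 106 and 90 regions, and shRNA-cFos E0 replicates 1, 2 and 3 in 47, 129 and 17, the highest again in the longest list. Absence of a peak in a short list is therefore no measure of closed chromatin at this unknown depth.

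Most of the lower peaks lay in the next stretch of the list. In the shRNA-cFos regions, 79.4% of the 1111 shRNA-Ctrl peaks below the limit ranked no lower than 50290, which is 2 times the limit, and in the shRNA-Ctrl regions 93.8% of the 389 shRNA-cFos peaks did. The 3 longest lists allow ranks to be set side by side where most regions have a peak. In the shRNA-cFos regions the median rank of the peak was 16377 in shRNA-cFos E0 replicate 2, against 38232 and 36329 in shRNA-Ctrl E1 replicates 1 and 3. In the shRNA-Ctrl regions the median rank was 32311 in shRNA-cFos E0 replicate 2, against 16604 and 18107 in those shRNA-Ctrl E1 lists. The rule chose members by calls above the limit in one shRNA and not in the other. Medians on opposite sides of the limit therefore follow from that choice. These lists also differ in state as well as in shRNA, so this is a difference of rank between libraries whose shRNA and state cannot be told apart.

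Members without any peak under the other shRNA, even in the whole lists, were 14 shRNA-cFos regions (2.42%) and 2 shRNA-Ctrl regions (1.19%). They were singled out after their values were seen. The highest-scoring of the 14, chr1:107317040-107317854 (815 bp), had percentiles 44.4 in shRNA-cFos E1 replicate 2 and 79.8, 46.9 and 57.5 in shRNA-cFos E0 replicates 1, 2 and 3. It had no peak in shRNA-cFos E1 replicate 1 or in any of the 6 shRNA-Ctrl lists as deposited. Another of the 14, chr19:25374283-25375175, was the only one called in all 5 shRNA-cFos libraries, at percentiles 13.6 and 27.8 at E1 and 25.1, 25.6 and 36.3 at E0. The 2 shRNA-Ctrl regions of this kind, chr12:95354265-95354835 and chr7:117364916-117365524, were each called in 5 of 6 shRNA-Ctrl libraries and missed in E1 replicate 2. Their shRNA-Ctrl percentiles were 30.5 to 53.8 and 22.1 to 51.6 where called.

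Which regions met the rule turned on the number of peaks kept, far more than how many did. With 20000 peaks per list, 453 shRNA-cFos and 166 shRNA-Ctrl regions met it, of which 205 and 54 overlapped the members described here. Keeping 15000 peaks gave 301 and 126, with 33 and 6 in common. In the lists as deposited 645 and 174 regions met it, with 73 and 10 in common. Thus 35.4% of the shRNA-cFos and 32.1% of the shRNA-Ctrl members were found again with 20000 peaks, and 12.6% and 5.95% without a cut. Only 3 shRNA-cFos regions and no shRNA-Ctrl region met the rule at all 4 lengths.

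**Figure D2:**
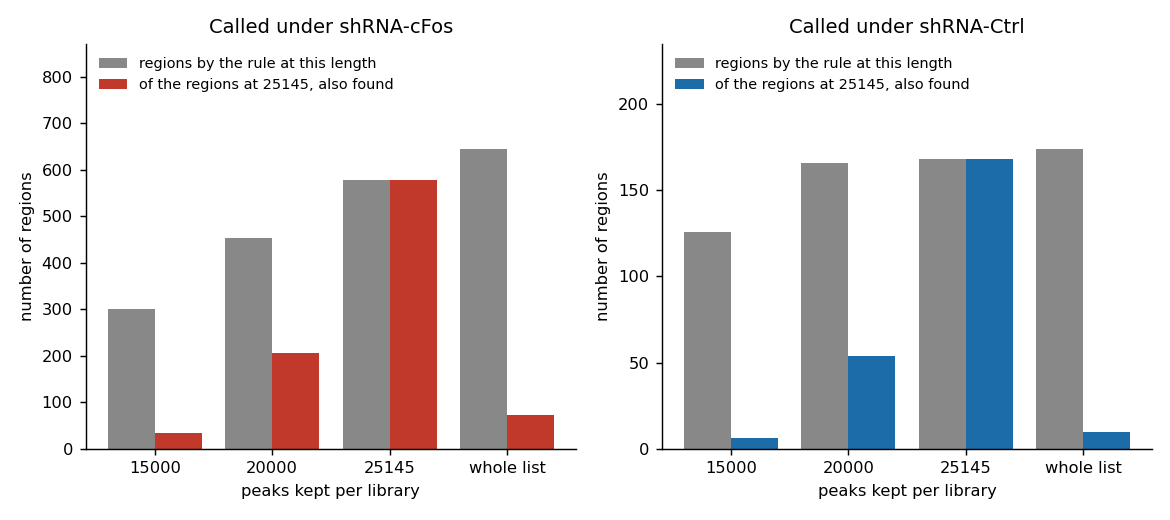
Number of regions that met the rule (grey) and number of the members described that were found again (coloured), by how many peaks of each library were kept, for shRNA-cFos regions (left) and shRNA-Ctrl regions (right). Counts stay between 301 and 645 on the left and between 126 and 174 on the right, while the regions in common drop to 33 and 73 on the left and to 6 and 10 on the right at the ends.

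The 3 that held at every length were picked by that property, after the values were seen. The first, chr3:124720071-124720680 (610 bp), had percentiles 30.6 and 73.8 in shRNA-cFos E1 replicates 1 and 2, and 66.3, 83.5 and 79.2 in shRNA-cFos E0 replicates 1, 2 and 3. Its only shRNA-Ctrl peak in any list was in E0 replicate 2, at percentile 57.4. The second was chr1:107317040-107317854, described above. The third, chr2:38502579-38503601, was called in shRNA-cFos E1 replicate 2 at percentile 41.5 and in the 3 shRNA-cFos E0 libraries at 40.8, 42.3 and 66.0, with a single shRNA-Ctrl peak at percentile 8.24 in E0 replicate 3.

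Among the 36 regions called in all 5 shRNA-cFos and in no shRNA-Ctrl library, chr5:72816576-72817312 (737 bp) scored highest. Its percentiles were 27.3 and 74.8 in shRNA-cFos E1 replicates 1 and 2 and 71.2, 70.8 and 43.0 in shRNA-cFos E0 replicates 1, 2 and 3, a mean of 57.4 ± 21.1 (SD, n = 5). All 3 shRNA-Ctrl E1 lists held a lower peak there, at ranks 66095, 35148 and 29509, and no shRNA-Ctrl E0 list held one. The second, chr11:102735800-102736883 (1084 bp), had percentiles 55.3 and 49.2 at E1 and 69.8, 57.9 and 34.1 at E0 under shRNA-cFos (53.3 ± 13.1, SD, n = 5). In shRNA-Ctrl, E1 replicates 1 and 3 ranked it 30032 and 39487.

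The third, chr5:85116814-85117526, stood at 56.3 and 55.3 in shRNA-cFos E1 and at 18.9, 63.1 and 56.1 in shRNA-cFos E0, so that E0 replicate 1 lay apart from 4 libraries within 8 percentile points of each other. The fourth, chr15:66889621-66890649, had 40.7 and 49.6 in shRNA-cFos E1 and 32.6, 52.6 and 67.1 in shRNA-cFos E0. Next was chr14:50066933-50067855, at 24.2 and 58.0 in shRNA-cFos E1 and 66.2, 46.6 and 39.8 in shRNA-cFos E0. In each of these the E1 and E0 values of shRNA-cFos overlapped.

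The sixth, chr11:32057710-32058609, had percentiles 23.8 and 49.1 in shRNA-cFos E1 and 13.2, 72.5 and 59.5 in shRNA-cFos E0. It was the one among the first 10 whose whole shRNA-Ctrl E1 lists held no peak, and its only shRNA-Ctrl peak ranked 25513 in E0 replicate 3, just below the limit. The seventh and eighth, chr12:73054683-73055657 and chr12:54934163-54934873, had both shRNA-cFos E1 percentiles below all 3 of E0, with means of 28.8 at E1 and 51.9 at E0 for the seventh, and 20.03 at E1 and 55.9 at E0 for the eighth. The last of these 10 were chr4:40049934-40050672 (40.4 ± 12.6, SD, n = 5) and chr9:30431974-30432699 (39.4 ± 8.86, SD, n = 5).

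The 8 regions called in all 6 shRNA-Ctrl and no shRNA-cFos library were led by chr2:114861865-114862467 (603 bp). It had percentiles 53.1, 63.4 and 43.7 in shRNA-Ctrl E1 replicates 1, 2 and 3 and 29.1, 64.2 and 53.5 in shRNA-Ctrl E0 replicates 1, 2 and 3, a mean of 51.2 ± 13.2 (SD, n = 6). Below the limit, shRNA-cFos E1 replicate 1 ranked it 27822 and E0 replicate 2 ranked it 36443, and the other 3 shRNA-cFos lists held no peak.

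Next came chr11:49063705-49064714 (38.7 ± 19.4, SD, n = 6) and chr18:61267701-61268938 (38.6 ± 25.05, SD, n = 6). The second of these ranged from percentile 0.416 in E0 replicate 3 to 63.4 in E0 replicate 2, so its place among the 8 hung on a peak at the very edge of the list, without which it would still have met the rule with 5 of 6 calls. The mean percentiles of the other 5 were 29.9 for chr15:34895524-34896112, 29.1 for chr1:40079595-40080821, 27.8 for chr12:88177350-88178062, 13.8 for chr2:110045081-110045590 and 12.4 for chrX:49806421-49806988. Every one of the 8 had a peak below the limit in at least 2 shRNA-cFos lists.

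**Figure D3:**
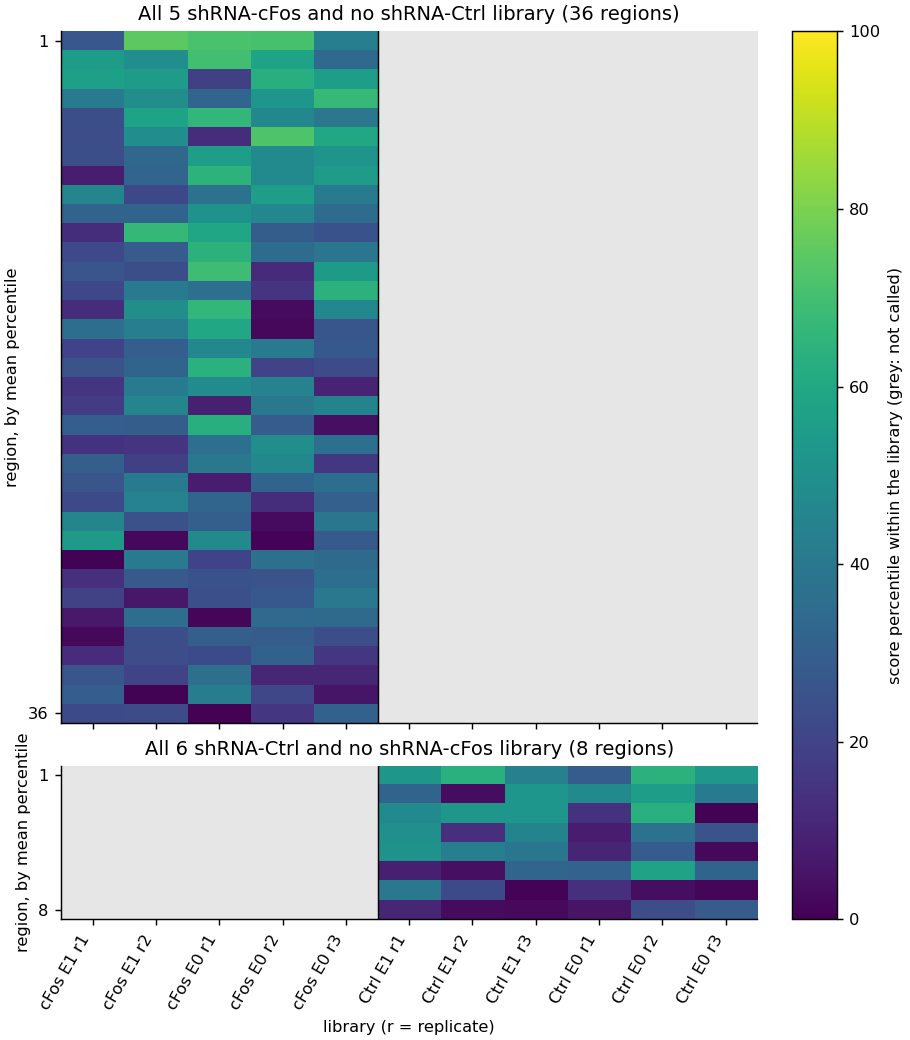
Score percentile within each library (colour; grey where not called) of the 36 regions called in all 5 shRNA-cFos and no shRNA-Ctrl library (top) and the 8 regions called in all 6 shRNA-Ctrl and no shRNA-cFos library (bottom), ordered by mean percentile. The leading rows have means of 57.4 (top) and 51.2 (bottom), and single cells near 0, such as the 0.416 of shRNA-Ctrl E0 replicate 3, are calls at the end of the list.

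The shRNA-Ctrl member with the highest mean percentile, chr6:47630663-47637092, was a merged stretch of 6430 bp. It had percentiles 38.3, 84.5 and 87.9 in shRNA-Ctrl E1 replicates 1, 2 and 3, and 85.1 and 89.7 in shRNA-Ctrl E0 replicates 1 and 3. Its single shRNA-cFos call, in E0 replicate 2, was as high, at 90.3. In the other 4 shRNA-cFos lists and in shRNA-Ctrl E0 replicate 2 no peak was listed at any rank. High values and absence thus occurred under both shRNAs at this region, which the count of libraries alone does not show. The next, chr5:39414226-39415241, was likewise at percentile 74.3 in shRNA-cFos E1 replicate 1, against 39.2 to 78.0 in the 6 shRNA-Ctrl libraries.

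Members ranked low in the lists. The median percentile of calls was 31.6 in shRNA-cFos regions and 33.7 in shRNA-Ctrl regions, against 32.4 in the 10616 other regions called in 4 to 7 libraries, 50.5 in all regions and 79.5 in the 9716 regions called in all 11. A call at or above percentile 75 of any list was found in 23 shRNA-cFos regions (3.97%) and 9 shRNA-Ctrl regions (5.36%), against 8.27% of the other regions called in 4 to 7 libraries.

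The shRNA-cFos regions were wider than the shRNA-Ctrl regions. Their median width was 838 bp (quartiles 705.5 and 1016.5) and that of the shRNA-Ctrl regions 672.5 bp (584.75 and 798.25), with 754 bp in the other regions called in 4 to 7 libraries. Regions called in all 11 had a median of 1412.5 bp. The order was the same in regions matched on calls. Other regions called in 4 to 7 libraries had a median of 865 bp where at least 4 shRNA-cFos libraries called them and 765 bp where at least 5 shRNA-Ctrl libraries did, both above the median of the members on that side. The median peak of the calling shRNA was 600.5 bp in shRNA-cFos regions and 474.5 bp in shRNA-Ctrl regions. Width was not part of the rule, but it comes from the same peaks, so it is given with no test.

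Regions are built from overlapping peaks, so their peaks share bases largely by construction. In 572 of 579 shRNA-cFos regions the peaks of all calling shRNA-cFos libraries shared bases, with a median shared core of 414 bp. The same held for 165 of 168 shRNA-Ctrl regions, with a core of 300 bp. More than 1 peak of a single library lay in 10 shRNA-cFos and 4 shRNA-Ctrl regions. The widest shRNA-cFos region, chr10:126514577-126519640 (5064 bp), was among the 7 without a shared core. The widest shRNA-Ctrl region was chrX:166438888-166447120 (8233 bp).

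The shRNA-cFos regions lay about as far from the chromatin that was called in every animal as other regions did. The shRNA-Ctrl regions lay somewhat farther from it, a difference that was not tested. The median distance to the nearest region called in all 11 libraries was 69.3 kb for shRNA-cFos regions and 95.9 kb for shRNA-Ctrl regions, against 77.3 kb for the other regions called in 4 to 7 libraries and 74.3 kb for all regions. Within 10 kb of such a region lay 41 shRNA-cFos (7.08%) and 9 shRNA-Ctrl regions (5.36%), against 7.76% of the other regions and 7.85% of all regions. For the nearest region called in all 11 libraries, at any distance, the mean percentile under shRNA-Ctrl was subtracted from that under shRNA-cFos. This difference had a median of 0.479 for shRNA-cFos regions and -0.355 for shRNA-Ctrl regions, on a scale of 100. Over the nearest neighbours of all regions it was 0.328. Differences of opposite sign cancel in such a median, so it does not show that single neighbours were alike.

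**Figure D4:**
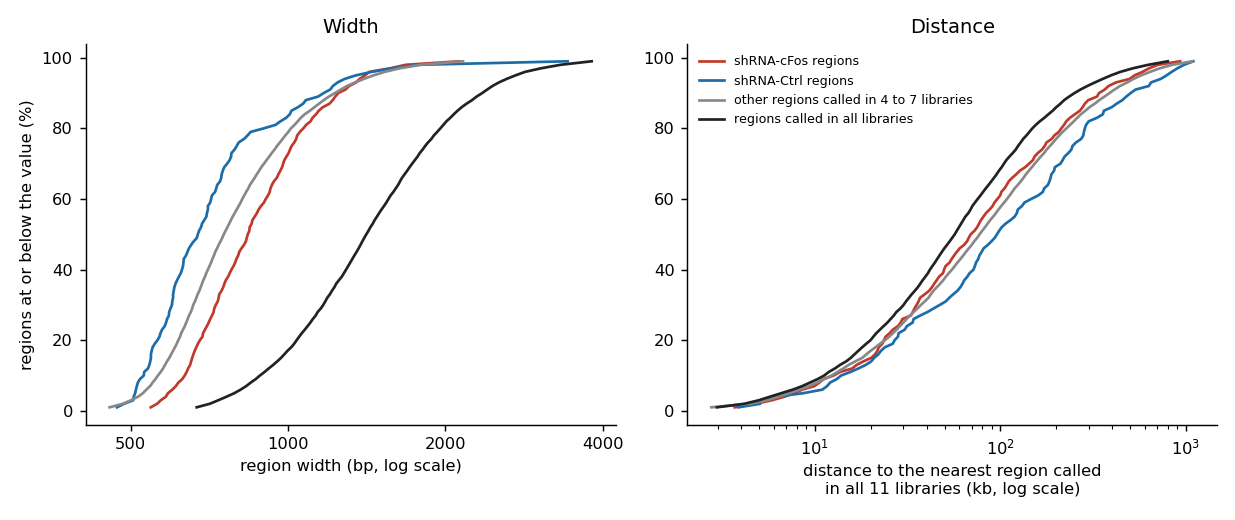
Cumulative share of regions by width (left) and by distance to the nearest region called in all 11 libraries (right), both on log axes, for shRNA-cFos regions, shRNA-Ctrl regions, other regions called in 4 to 7 libraries and regions called in all libraries. Median widths are 838, 672.5, 754 and 1412.5 bp in that order, and median distances are 69.3, 95.9, 77.3 and 56.8 kb.

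Members were spread over all 20 chromosomes. Chromosome 1 held the most shRNA-cFos regions, 59 or 11.7 per 1000 regions of that chromosome, and chromosome 18 the most per region, with 33 or 12.5 per 1000. The lowest shares were on chromosome X, with 8 or 4.21 per 1000, and chromosome 7, with 12 or 5.79 per 1000. Chromosome X also held 8 shRNA-Ctrl regions, and its 4.21 per 1000 was the highest share of any chromosome for that set. Chromosome 12 was close to it, with 11 or 4.08 per 1000, while chromosome 19 held 1. These shares rest on few regions.

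The rule counts calls over both states together, so a member need not be separated within each. Within E1, 230 shRNA-cFos regions were called in both shRNA-cFos E1 and no shRNA-Ctrl E1 library, 39.7% of the shRNA-cFos regions and 22.8% of the 1009 regions with that pattern (1.7% of all). Within E0, 182 had calls from the 3 shRNA-cFos E0 libraries and none from shRNA-Ctrl E0, which are 31.4% of the shRNA-cFos regions and 32.0% of the 569 regions with that pattern (0.96% of all regions). The 36 with both patterns are those of complete separation, and 203 members had neither.

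In the opposite direction, 67 shRNA-Ctrl regions were fully separated at E1, 10.5% of 638 (1.08% of all), and 49 at E0, 19.8% of the 248 regions with that pattern (0.418% of all). Neither pattern was met by 60 of the 168. Separation of the shRNAs within both states thus held in full for 36 and 8 of the members.

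Whether the members also differed between E1 and E0, a contrast that the rule did not use, was tested for each of the 59298 regions on its percentiles. The test was a two-sided exact permutation of the E0 and E1 labels within each shRNA group over 200 assignments, with Benjamini-Hochberg adjustment over all regions. No member passed. The smallest adjusted p of a member was 0.257 (exact permutation test), and that of any region 0.162, so that 0 of 59298 regions (0%) passed.

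At an unadjusted exact permutation p under 0.05, 14 shRNA-Ctrl regions (8.33%) and 0 shRNA-cFos regions were found, against 10.5% of all regions. All 14 were higher at E1 at that p, as were 6.72% of all regions, and none was lower, as were 3.76% of all regions. The rule itself limits this test. A shRNA-cFos region has at most 1 value above 0 in shRNA-Ctrl, which leaves little more than the 2 libraries against 3 of shRNA-cFos. With all libraries, the smallest exact permutation p that such a region can have is 0.05, which 59 regions had. The 0 was therefore fixed in advance and says nothing about these regions. The smallest among shRNA-Ctrl regions was 0.02, in 10. A shRNA-Ctrl region can fall under 0.05 only if it is higher at E1 and its stray call is at shRNA-cFos E1. This follows from 2 shRNA-cFos libraries at E1 against 3 at E0, so the direction of the 14 was fixed as well. Without any 1 of the 3 shRNA-cFos E0 libraries the count of 14 was 0, because no member can then have an exact permutation p under 0.05. Without shRNA-cFos E1 replicate 1 the count was 5. Leaving out shRNA-Ctrl libraries gave 24 without E1 replicate 1, 28 without E1 replicate 3, and 72, 41 and 58 without E0 replicates 1, 2 and 3. The test could call no shRNA-cFos region and hardly a shRNA-Ctrl region, and its outcome does not show that the states were alike.

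Within shRNA-cFos, the shRNA-cFos regions more often had the lower percentile at E1. The median of the region means was 20.7 at E1 and 31.8 at E0, and the median difference, E1 minus E0, was -10.8 percentile points over the 579. Every E1 library lay below every E0 library in 143 regions (24.7%) and above in 33 (5.70%). Among 1582 other regions with 4 to 7 calls, at least 4 of them under shRNA-cFos, the median difference was -2.75, with 17.1% below and 13.9% above. Within shRNA-Ctrl, the shRNA-Ctrl regions had medians of 27.7 at E1 and 30.7 at E0 and a median difference of -1.36, with 24 regions (14.3%) below and 19 (11.3%) above. Among 247 other regions with 4 to 7 calls, and as many shRNA-Ctrl calls as the rule asks for, the median difference was -2.96. Every E1 library lay below every E0 library in 11.3% of them and above in 17.4%. Complete separation was thus more often below in the shRNA-Ctrl regions and more often above in these other regions, while both medians were negative. These are counts over regions that share libraries, with no test.

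The size of this difference hung on the library and on the cut. Without shRNA-cFos E1 replicate 1, the library that lacked the most calls, the median difference of the shRNA-cFos regions was -6.08, and without any other shRNA-cFos library it lay between -13.9 and -8.77. For the shRNA-Ctrl regions it lay between -4.28 and -1.18 with 1 shRNA-Ctrl library left out, and it was -1.98, -3.44, -4.28 and -3.82 without E1 replicate 1, E1 replicate 3, E0 replicate 1 and E0 replicate 2, in that order. In percentiles of the whole lists, where the same rank stands higher in a longer list, the median difference was -0.489 for shRNA-cFos regions and 30.2 for shRNA-Ctrl regions, whose E1 lists include 2 of the 3 longest. No direction between the states therefore held for the shRNA-Ctrl regions under both scales. For the shRNA-cFos regions the median difference was negative on both scales, but small in the whole lists. There the medians of the region means under shRNA-cFos were 53.2 at E1 and 53.1 at E0.

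**Figure D5:**
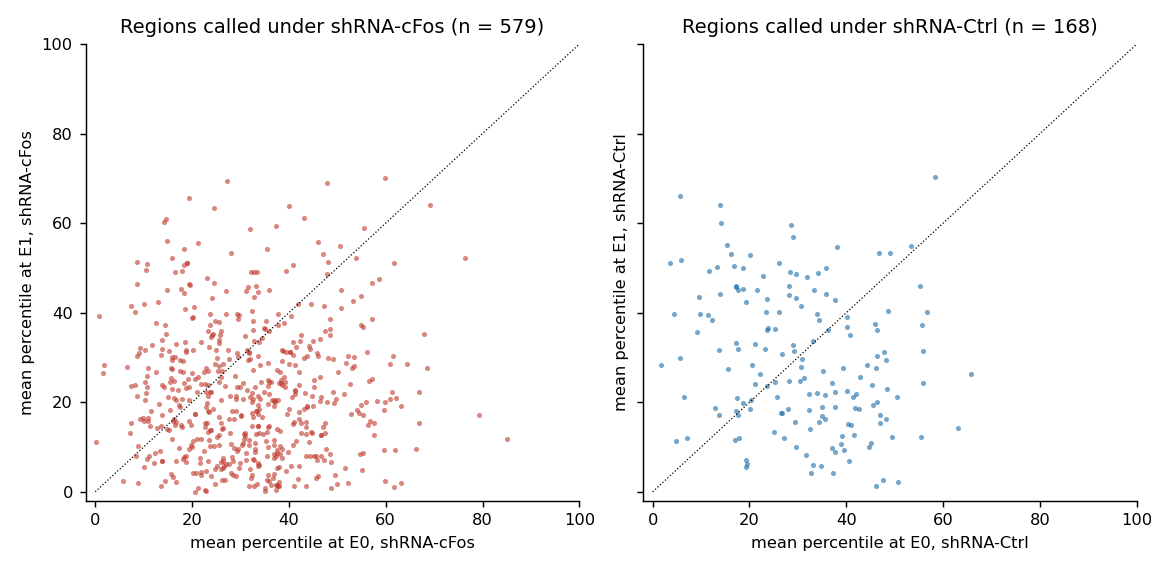
Mean score percentile at E1 (vertical axis) against E0 (horizontal axis) in the calling shRNA, 1 point per region with libraries that did not call it set to 0, for 579 shRNA-cFos regions (left) and 168 shRNA-Ctrl regions (right); the dotted line marks equal values. On the left 393 points lie below the line and 186 above, on the right 90 below and 78 above.

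The region with the largest excess at E0 was chr12:63732743-63733658. It had no call in shRNA-cFos E1 replicate 1 and a percentile of 23.8 in E1 replicate 2, against 88.8, 88.5 and 77.7 in shRNA-cFos E0 replicates 1, 2 and 3. In shRNA-Ctrl it was called in no library, and 1 lower peak, at rank 56343, lay in E1 replicate 3. The unadjusted exact permutation p for E1 against E0 was 0.1 (adjusted 0.551). Next came chr3:114955431-114956650, with means of 17.1 at E1 and 79.4 at E0 under shRNA-cFos, and chr10:34561788-34562394, with 1.92 at E1 and 63.1 at E0. The last had no peak in any shRNA-Ctrl list as deposited.

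The largest excess at E1 among shRNA-cFos regions was that of chr18:35841051-35842221, with percentiles 55.2 and 76.2 in shRNA-cFos E1 and 32.3, 25.6 and no call in shRNA-cFos E0. Its stray call, at 56.5, was in shRNA-Ctrl E1 replicate 2, and the other 2 shRNA-Ctrl E1 lists held lower peaks. Behind it came chr15:97145316-97146385, with means of 60.9 at E1 and 14.6 at E0 under shRNA-cFos, and chr1:25324244-25324899, with 60.3 at E1 and 14.2 at E0. In all 3 both E1 values lay above all E0 values, and none of the 3 was called in shRNA-Ctrl E0.

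Among shRNA-Ctrl regions the largest excess at E1 was at chr8:28880754-28881699, with percentiles 58.2, 80.3 and 59.9 in shRNA-Ctrl E1 and 0.843, 16.3 and no call in shRNA-Ctrl E0. The shRNA-Ctrl groups did not overlap. Its exact permutation p, which takes in both shRNA groups, was 0.02 (adjusted 0.257). The next were chr18:42788812-42789819, with means of 64.0 at E1 and 14.0 at E0, and chr13:6617616-6618472, with 51.1 at E1 and 3.51 at E0, both at the same p. Each of these 3 had its stray shRNA-cFos call at E1 too, at percentiles 6.94, 34.7 and 19.998. A shRNA-Ctrl region can reach that p only with such a call.

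In the opposite direction, chr2:55670383-55671085 had percentiles 12.8, no call and 29.8 in shRNA-Ctrl E1 and 72.1, 54.2 and 63.0 in shRNA-Ctrl E0. Its stray shRNA-cFos call, at 58.6, was in E0 replicate 2. The exact permutation p, which takes in both shRNA groups, was 0.05 (adjusted 0.419). At chr10:51124870-51125409 the means were 2.19 at E1 and 50.7 at E0, and at chr2:106224410-106225492 they were 2.69 at E1 and 47.6 at E0. The stray call of chr10:51124870-51125409 was at shRNA-cFos E1, and its exact permutation p was 0.1. No shRNA-Ctrl E1 value reached a shRNA-Ctrl E0 value in any of these 3.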

How the data were processed

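ATAC-seq peak lists of 11 libraries, 1 mouse each, were used. Per the submitters' processing notes, reads were aligned with Bowtie2 to mm9, and per the deposited peak names, peaks were called with MACS, per library. Caller settings, read filters and any transposase shift are not stated there. The score deposited by the authors runs from 50 to 3100 in the lists, on a scale that no source states. Depth is unknown, so no interval that needs it is given.

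Each list was cut to its highest-scoring peaks on chromosomes 1 to 19 and X, as many as the shortest list holds, peaks sharing 1 bp were merged, and the percentile of the best peak was taken per region and library (0 where not called). The members, lists and tests were chosen with earlier results of these data known. Regions named by position are, per direction, the 10 highest by mean percentile among those of complete separation (filled up with the next members), the 3 with the largest difference of state each way, the widest, and those next to the threshold. Other named regions were chosen after their values were seen. Lists of marker genes and a motif, planned for an annotation of the files' build, were not used.

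E1 was compared with E0 by the exact permutation test described, adjusted over 59298 regions. Alternatives were other list lengths, a minimum score of 100, 50% of a region covered, merging within 200 bp, all chromosomes, complete separation, calls in place of percentiles, only regions called in at least 3 libraries, a replicate block and each library left out. The merging, the rule and the test were tested on simulated data. Python 3.11.15, numpy 2.4.6, scipy 1.17.1 and matplotlib 3.10.9 were used.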

Additional observations from a re-analysis of the deposited data

Results flagged for a closer look

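At chr5:85116814-85117526, called in all 5 shRNA-cFos and no shRNA-Ctrl library, shRNA-cFos E0 replicate 1 had a percentile of 18.9, while the other 4 shRNA-cFos libraries lay between 55.3 and 63.1. It was set apart because its gap to the nearest library was 0.825 of the group's range. Of 34 sets of 5 or 6 libraries examined this way it was the only one, and chance alone gives about 1 in 20.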

How the results depend on the processing

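The counts of 579 shRNA-cFos and 168 shRNA-Ctrl regions depended on the rule as follows. With 15000 peaks there were 301 shRNA-cFos regions. A score of at least 100 left lists of unequal length, the shortest with 12071 peaks, and gave 618 and 54. Where peaks had to cover at least 50% of the region there were 938 and 104, and complete separation gave 36 and 8. Leaving out 1 library, with 1 missing and 1 stray call still allowed, is a looser rule and gave 780 to 1244 shRNA-cFos and 283 to 373 shRNA-Ctrl regions, which held at least 578 and 167 of the members. The shRNA-cFos count moved by over 1.5 times without any 1 shRNA-cFos library or without shRNA-Ctrl E0 replicate 2 or 3, and the shRNA-Ctrl count without any 1 library. Chosen after seeing the data, leaving out the 3 longest lists gave 2124 and 1165 regions, and leaving out shRNA-Ctrl E1 replicates 1 and 3, whose list names differ in form, gave 1391 and 799. The ratio of shRNA-cFos to shRNA-Ctrl regions was 1.74 and 1.82 there, and 2.3 to 11.4 under the others. The shRNA-cFos regions were the more numerous under each alternative run.

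No member passed the adjusted test of E1 against E0 under any alternative. The count of 14 at an unadjusted exact permutation p under 0.05 became 0 with calls in place of percentiles and 72 with lists as deposited, and lay between 0 and 72 with 1 library left out. It was 0 without any 1 of the 3 shRNA-cFos E0 libraries, since no member can then have an exact permutation p under 0.05. With the replicate number as a block it was 0, since 32 assignments allow no p under 0.0625. Deviations of same-numbered E1 and E0 libraries correlated at -0.051 and -0.05 in shRNA-cFos and at -0.025, 0.072 and 0.138 in shRNA-Ctrl, so the numbers were not taken as pairs, and not every shRNA-Ctrl library correlated best with its own number. The cause of the other changes was not tested. Unequal list length and unknown depth limit what the absence of a call can show.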

Other observations

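Distances between members were not set against those in equally large sets of other regions, so they are given as a description. Of the shRNA-cFos regions, 47 (8.12%) had another within 100 kb, and none of the shRNA-Ctrl regions did. The median distance to the next region of the same set was 1162 kb for shRNA-cFos and 4909 kb for shRNA-Ctrl regions, of which there were fewer. Windows of 1 Mb held at most 3 shRNA-cFos regions, as on chromosome 4 at 69000001 to 70000000 among 29 regions of any kind. The only window with 3 shRNA-Ctrl regions lay on chromosome 3 at 128000001 to 129000000, among 17 regions. Regions of opposite direction lay within 100 kb of each other at 10 shRNA-cFos and 9 shRNA-Ctrl regions.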
